A study of Mus musculus with 12 samples.

Results

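Uap1 and Nagk, with the other enzymes that build or recycle UDP-N-acetylglucosamine (UDP-GlcNAc), were followed in mouse epidermal samples without and after wounding. Members were the probe sets whose RefSeq accession maps to Uap1 or Nagk, and to any measured of Gfpt1, Gfpt2, Gnpnat1, Pgm3, Amdhd2 and Gnpda1. This gave 7 genes of the 8 sought, each with 1 probe set, out of 909 named genes and 1246 probe sets in all. Amdhd2 was matched to no probe set and was not analysed here. No filter on low values was applied, so all 7 entered every comparison.

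The hexosamine pathway diverts fructose-6-phosphate from glycolysis into UDP-GlcNAc, the donor of GlcNAc for N-glycans, hyaluronan, heparan sulfate and the O-GlcNAc mark on intracellular proteins. Gfpt1 and Gfpt2 carry out the first, rate-limiting step, Gnpnat1 acetylates glucosamine-6-phosphate, Pgm3 moves the phosphate, and Uap1 joins the sugar phosphate to uridine. Nagk phosphorylates GlcNAc freed by lysosomal breakdown and returns it to the pathway, while Gnpda1 turns glucosamine-6-phosphate back into fructose-6-phosphate. In skin, keratinocytes draw on UDP-GlcNAc for the hyaluronan that surrounds them.

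The series held 12 samples whose titles all begin with B6 and which form 5 groups. They are 4 non-wounded samples, 1 sample wounded for 0 h, 2 for 30 min, 4 for 2 h and 1 for 4 h. The labels give no age, sex, transgene, drug or number of animals per sample, and they name dendritic epidermal T cells as the material, whereas the series' design speaks of whole epidermis, most of whose cells are keratinocytes. Expression was measured on single-colour Affymetrix arrays as RMA values, a log2 scale on which a difference of 1 is a 2-fold change, so differences below are log2 differences unless a fold is stated. In non-wounded samples the 4 keratinocyte markers measured had mean values from 2.87 ± 0.08 for the growth factor Areg to 12.08 ± 0.27 for the galectin Lgals7 (SD, n = 4). The 3 T cell markers measured ran from 2.38 ± 0.12 for the receptor Klrk1 to 5.09 ± 0.29 for the receptor chain Il2rb, and the T cell receptor-complex genes Cd3e, Cd3d and Cd3g were not among the named probe sets. Of the 9 keratinocyte markers listed, the keratins Krt5, Krt14, Krt1 and Krt10 and the cadherin Cdh1 were not among them either. The 3 Langerhans cell markers measured ran from 4.14 ± 0.27 for Cd83 to 10.78 ± 0.45 for Cd74, with the lectin Cd207 at 7.86 ± 0.63. Values of different probe sets cannot be ranked against each other and do not show detection, so they do not tell which of the named materials was used.

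Each group has 1 sample with the number 1 in its title, and these 5 lay apart from the 7 numbered 2 to 4 in the spread of their values. The first principal component held 66.9% of the variance, and which samples it separates was not recorded. The SD of values over probe sets was 1.81 and 1.85 in the non-wounded and 0 h samples numbered 1, and 1.55 to 1.59 in those numbered 1 at 30 min, 2 h and 4 h. It was 2.19 to 2.30 in the samples numbered 2 to 4. Values of the members are therefore given by sample number, and lists and markers also for numbers 2 to 4 alone. The 0 h and 4 h groups hold only a sample numbered 1 and have no replicate.

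Uap1 was selected on its 2 h values, because it had passed the threshold at 2 h in a fit with the sample number as a block, and Nagk was chosen with its values in these samples known. In that limma fit, which was run here again, the adjusted p at 2 h against non-wounded was 0.0448 for Uap1 and 0.169 for Nagk, and without the block it was 0.998 for both. These values describe the choice and are not evidence for it. The 2 h differences of both genes are accordingly given as a description.

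The upstream sequences of Uap1 and Nagk are shown because the results turn on these 2 genes. They are the 250 bases before a RefSeq transcript start on GRCm38.p6, at chr1:170174965-170175214 on the minus strand for Uap1 and chr6:83794750-83794999 on the plus strand for Nagk, read 5′ to 3′ towards the gene. RefSeq's span of Nagk starts upstream of the transcript start used, so the last 17 bases shown for Nagk lie within that span. Capitals mark matches, on either strand, to the GC box GGGCGG or the CCAAT box CCAAT.
Uap1: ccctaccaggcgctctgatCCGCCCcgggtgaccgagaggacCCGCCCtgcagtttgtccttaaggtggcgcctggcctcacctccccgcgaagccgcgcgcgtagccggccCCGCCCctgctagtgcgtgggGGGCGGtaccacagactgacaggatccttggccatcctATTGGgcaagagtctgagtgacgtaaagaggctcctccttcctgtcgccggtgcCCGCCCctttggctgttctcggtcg
Nagk: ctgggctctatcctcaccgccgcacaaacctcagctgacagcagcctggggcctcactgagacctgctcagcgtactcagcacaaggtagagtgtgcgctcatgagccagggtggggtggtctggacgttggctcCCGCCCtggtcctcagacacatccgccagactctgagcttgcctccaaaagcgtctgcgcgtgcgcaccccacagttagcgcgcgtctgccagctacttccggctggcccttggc

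The Uap1 sequence held 5 GC boxes, 1 CCAAT box and 22 CpG dinucleotides, with a GC content of 67.2%. That of Nagk held 1 GC box, no CCAAT box and 15 CpG dinucleotides, with 64.0% GC. Over 32851 RefSeq sequences of the same length, 32.7% held a GC box and 33.8% a CCAAT box, and the median GC content was 52.4%. The letters of a cyclic AMP element (TGACGTCA), an AP-1 element (TGANTCA), an E-box (CACGTG), a core of the unfolded protein response element (TGACGTG) and a TATA box (TATAAA) were found in neither sequence. Of all sequences searched, 1.55% held the cyclic AMP element, 6.75% the AP-1 element, 6.02% the E-box, 1.65% the unfolded protein response core and 12.4% the TATA box. Of these motifs, the unfolded protein response core shares TGACGT with the cyclic AMP element and ACGTG with the E-box. Among the other members, Gfpt1, Pgm3 and Gfpt2 had 4, 5 and 2 GC boxes, and Gfpt2 had the AP-1 letters once.

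Uap1, the enzyme of the last step, was higher at 2 h than in non-wounded samples in every pair of samples with the same number. Its non-wounded values were 5.56, 6.39, 6.52 and 6.72 for numbers 1 to 4, and its 2 h values were 5.97, 7.82, 7.66 and 8.20. The 3 samples numbered 2 to 4 at 2 h lay above all non-wounded samples, while the one numbered 1 lay below the non-wounded samples numbered 2 to 4, so the groups as a whole overlapped. The same-number differences were 0.41, 1.43, 1.14 and 1.48, with a mean of 1.11 ± 0.49 (SD, n = 4 pairs), a 2.16-fold difference. Over numbers 2 to 4 alone the mean was 1.35 ± 0.18 (SD, n = 3 pairs), or 2.54-fold. The pairing rests on number 1, as described under the processing, so this SD depends on how numbers 2 to 4 are matched. As background, 13.4% of all probe sets were higher at 2 h in all 4 pairs, and 14.7% had their 2 h samples numbered 2 to 4 all above the non-wounded samples of those numbers. By the size of the difference of group means Uap1 ranked 15th from the top of 1246 probe sets. Each value comes from an RNA extract, and which material was used is not settled. If it held several cell types, more cells of a type and more RNA per cell cannot be told apart.

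Nagk, the salvage kinase, was lower at 2 h in every pair. Its non-wounded values were 7.76, 8.37, 8.20 and 8.49 for numbers 1 to 4, and its 2 h values were 5.88, 7.61, 7.75 and 7.63. All 2 h samples lay below all non-wounded samples, although the highest at 2 h (7.75) and the lowest non-wounded sample (7.76), which carry different numbers, nearly touched. The same-number differences were -1.88, -0.77, -0.45 and -0.86, with a mean of -0.99 ± 0.62 (SD, n = 4 pairs). Numbers 2 to 4 alone gave -0.69 ± 0.22 (SD, n = 3 pairs), a level 1.62-fold lower, and the pair numbered 1 a level 3.67-fold lower. The SD over numbers 2 to 4 again depends on the matching by number. Of all probe sets 11.6% were lower at 2 h in all 4 pairs, and 2.73% had every 2 h sample below every non-wounded sample. The difference of means of Nagk ranked 14th from the bottom of 1246.

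**Figure D1:**
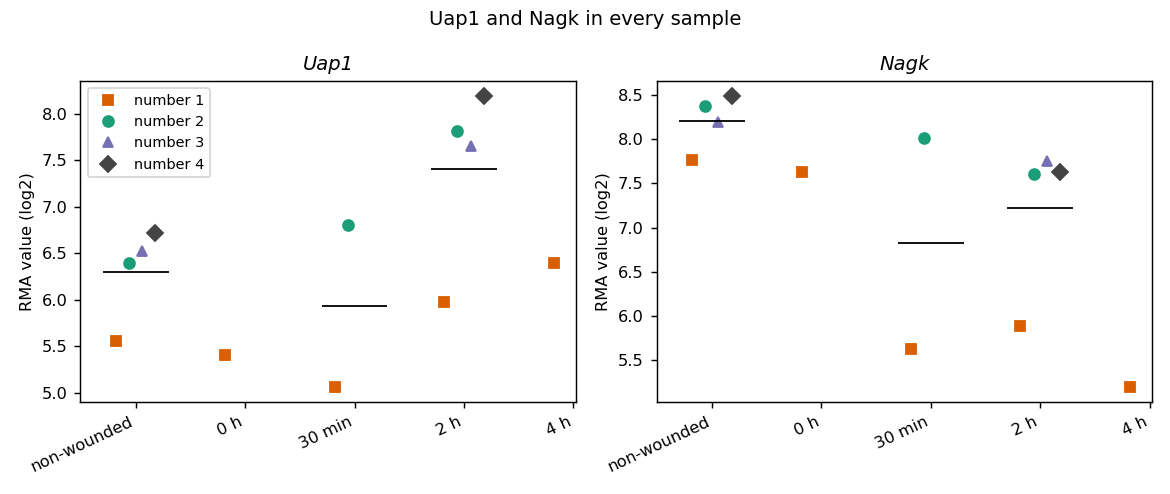
RMA values (log2) of Uap1 and Nagk in all 12 samples by group, with the sample number shown by colour and shape and the mean of each group of 2 or more as a line. Uap1 is highest in the 2 h samples numbered 2 to 4 (7.66 to 8.20), and Nagk is lowest in the samples numbered 1 at 30 min, 2 h and 4 h (5.20 to 5.88).

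The time course of Nagk differed in size between the 2 sets of samples. Among samples numbered 1 Nagk stood at 7.76 without wounding and 7.62 at 0 h, then at 5.63 after 30 min, 5.88 after 2 h and 5.20 after 4 h. The first 2 values were close together and the 3 later ones were all lower, by 2.13, 1.88 and 2.56 than the non-wounded sample, the last a 5.92-fold lower level. Of 1246 probe sets, only 4 were lower by more than Nagk at 4 h. Differences of 1 or more downward were found for 8.51% of probe sets at 4 h and 10.0% at 30 min in the samples numbered 1, against 0.562% at 0 h. The narrower range of the 3 later samples moves with this result. After scaling to the same median and SD, Nagk differed by -2.20 at 30 min, -1.87 at 2 h and -2.73 at 4 h. In the samples numbered 1, whatever narrowed the range and the time after wounding cannot be told apart. Among samples numbered 2 to 4, Nagk was 8.01 in the single 30 min sample, below the 3 non-wounded samples and above the 3 at 2 h.

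Uap1 followed another course in the samples numbered 1, with 5.56 without wounding and 5.40 at 0 h, then 5.06 after 30 min, 5.97 after 2 h and 6.40 after 4 h. The 4 h value was the highest of the 5, by 0.84 above the non-wounded sample (1.24 after scaling), and the 30 min value the lowest. At 4 h 3.29% of probe sets were higher by 1 or more than in the non-wounded sample numbered 1, and 0.321% at 0 h; Uap1 was under that limit at both times. In the samples numbered 2 to 4 the 30 min value was 6.80, just above the highest non-wounded value of 6.72 and below the lowest 2 h value of 7.66. The order 2 h above 30 min above non-wounded thus held for the samples numbered 2 to 4, whereas in the samples numbered 1 the 30 min value lay below the non-wounded one. A single sample stands for 30 min in each set, so neither order has a replicate.

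At 30 min against non-wounded the limma fit called none of the 7 members, against a background of 0.0% of probe sets in either fit, where 63 probe sets (136 when blocked) were under an unadjusted p of 0.05. Uap1 differed by -0.37 ± 0.65 (SE, limma adjusted p = 0.847), or 0.05 with the block, and its same-number differences were -0.50 for number 1 and 0.41 for number 2. Nagk differed by -1.39 ± 0.67 (SE, limma adjusted p = 0.735), with same-number differences of -2.13 for number 1 and -0.36 for number 2. Without the 30 min sample numbered 1 the Nagk difference was -0.19, and without the other one it was -2.58, so its size rests on the sample numbered 1. These tests share the non-wounded samples with the comparison that chose the genes.

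Between 30 min and 2 h Uap1 was higher at 2 h by 0.91 in the samples numbered 1 and by 1.02 in those numbered 2. Nagk was higher by 0.26 in number 1 and lower by 0.41 in number 2. The 2 h samples are those that chose both genes, so no test is given for them. Of the other 5 members none passed in this comparison (limma adjusted p from 0.980 to 0.981), where 0.0% of all probe sets passed with or without the block, and 27 and 67 were under an unadjusted p of 0.05.

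**Figure D2:**
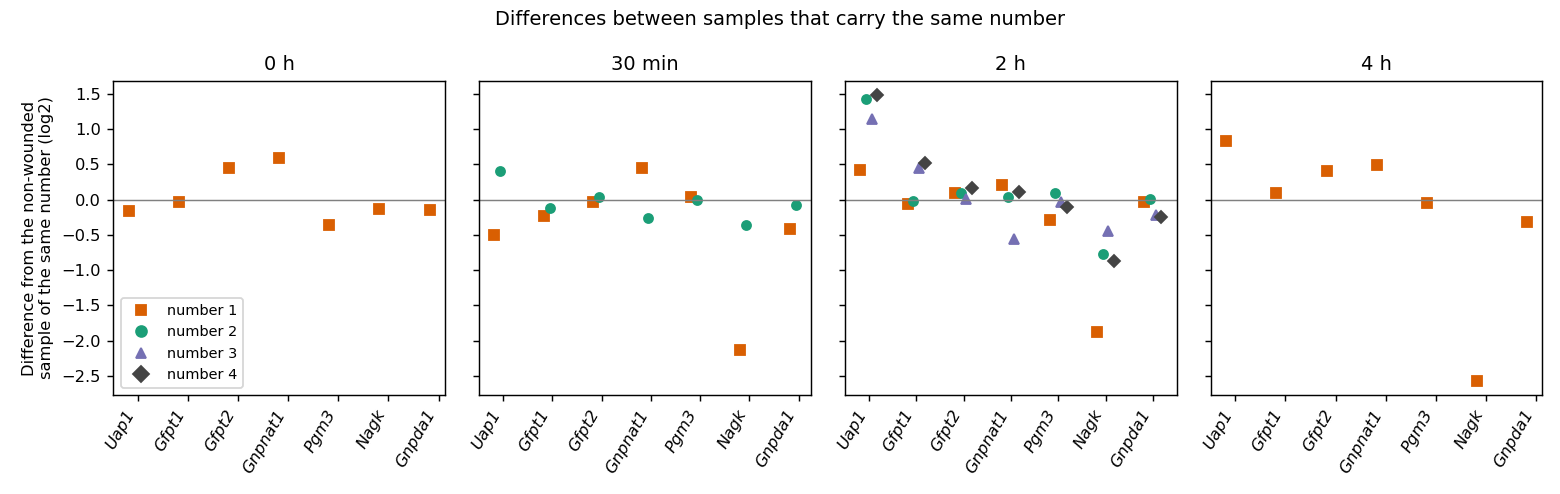
Difference (log2) of each wounded sample from the non-wounded sample of the same number for the 7 members at 0 h, 30 min, 2 h and 4 h; colour and shape show the number and the line marks no difference. At 2 h all 4 Uap1 points lie above the line and all 4 Nagk points below it, and the Nagk points numbered 1 at 30 min, 2 h and 4 h lie between -1.88 and -2.56.

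The enzymes of the earlier steps did not pass at 2 h against non-wounded, with or without the block, in which the background was 0.241% and 1.36% of probe sets. Gfpt1, the first enzyme, had non-wounded values of 3.97, 3.63, 3.28 and 3.25 and 2 h values of 3.91, 3.61, 3.73 and 3.77 for numbers 1 to 4. The 2 h values lay within the non-wounded range, and the difference was 0.22 ± 0.19 (SE, limma adjusted p = 0.998, or 0.570 with the block). Pairs 3 and 4 differed by 0.45 and 0.52 and pairs 1 and 2 by -0.06 and -0.02, so the pairs did not share a direction. Its paralogue Gfpt2 had non-wounded values of 3.67, 3.60, 3.60 and 3.54 and 2 h values of 3.76, 3.69, 3.61 and 3.70. Gfpt2 was higher in all 4 pairs by 0.01 to 0.16, and the difference of means of 0.09 ± 0.13 (SE, limma adjusted p = 0.998, or 0.785 with the block) became -0.02 with each sample scaled to the same median and SD. The 2 unreplicated groups held the highest Gfpt2 values of the series, 4.12 at 0 h and 4.08 at 4 h, against 3.54 to 3.76 in the other 10 samples. Both are samples numbered 1. After that scaling they were 4.03 and 3.87, and the highest of the other samples was 3.81, in the non-wounded sample numbered 4. How many of all probe sets showed such a gap was not counted.

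Gnpnat1, the acetyltransferase, had non-wounded values of 2.97, 4.12, 4.27 and 3.70 and 2 h values of 3.18, 4.15, 3.72 and 3.81 for numbers 1 to 4. The sample numbered 1 was the lowest in both groups, the groups overlapped, and the difference was -0.05 ± 0.31 (SE, limma adjusted p = 0.998, or 0.922 with the block). Pgm3, the phosphomutase, had non-wounded values of 2.97, 2.37, 2.38 and 2.44 and 2 h values of 2.68, 2.47, 2.34 and 2.33. Here the sample numbered 1 was the highest in both groups, and the difference was -0.08 ± 0.21 (SE, limma adjusted p = 0.998, or 0.810 with the block). For both enzymes the sample numbered 1 lay outside the range of numbers 2 to 4 in both groups.

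Gnpda1, which takes glucosamine-6-phosphate back to glycolysis, varied little. Its non-wounded values were 5.56, 5.42, 5.50 and 5.41 and its 2 h values 5.53, 5.43, 5.27 and 5.17, with a difference of -0.12 ± 0.15 (SE, limma adjusted p = 0.998, or 0.733 with the block). At 30 min Gnpda1 was 5.14 and 5.35, both below the lowest non-wounded value of 5.41. How many of all probe sets showed such a gap was not counted. With each sample scaled to the same median and SD, number 2 at 30 min was 5.341. The lowest non-wounded value was then 5.339, so the groups overlapped. The unscaled difference of Gnpda1 at 30 min was -0.23 ± 0.18 (SE, limma adjusted p = 0.739). Over Gfpt1, Gfpt2, Gnpnat1, Pgm3 and Gnpda1 the 2 h differences ran from -0.12 to 0.22, against 1.11 for Uap1 and -0.99 for Nagk. Uap1 was chosen on its 2 h values and Nagk with its values known, so this contrast is no evidence of a difference between steps.

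**Figure D3:**
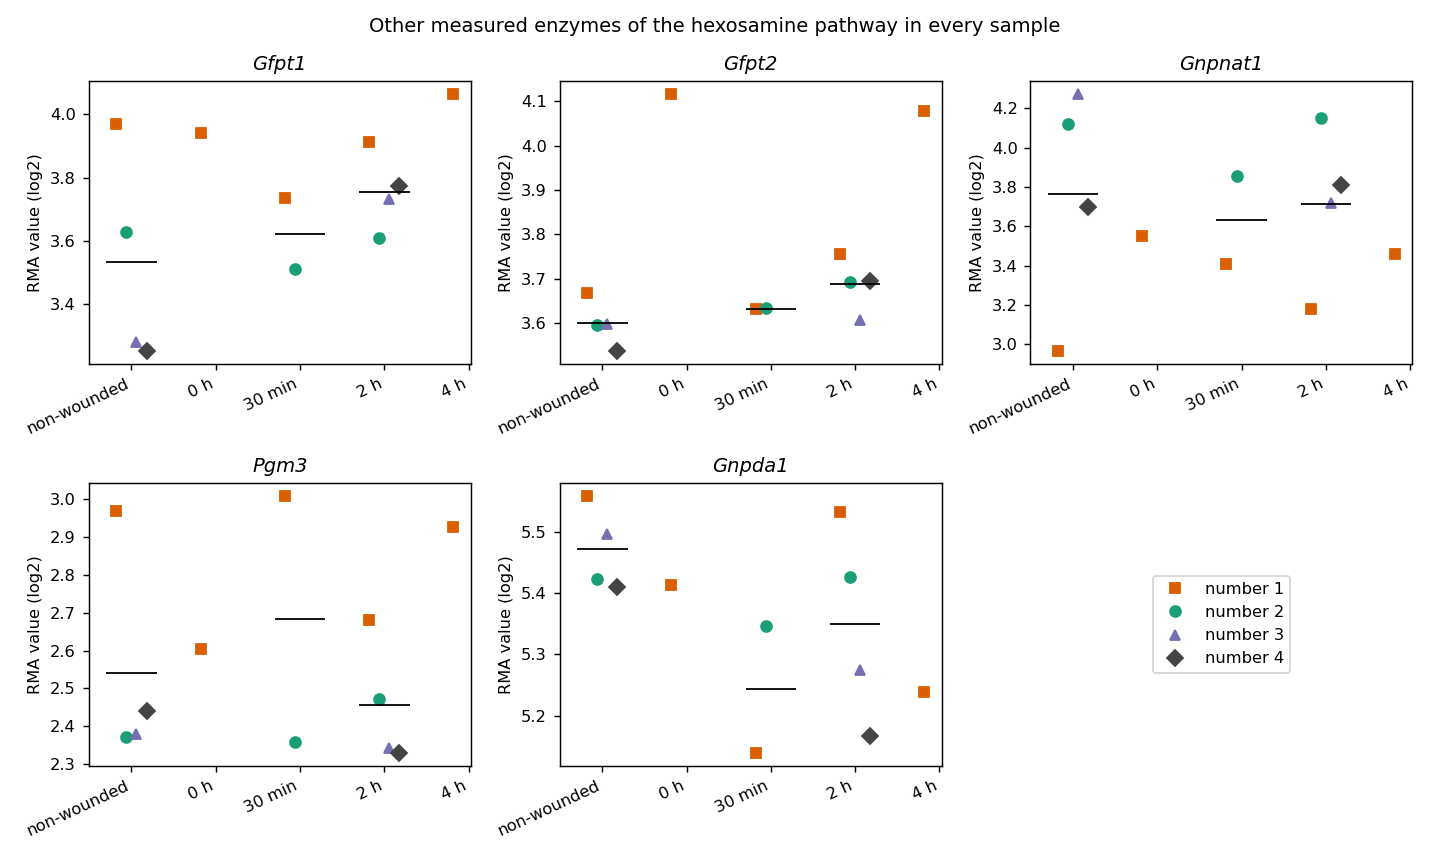
RMA values (log2) of Gfpt1, Gfpt2, Gnpnat1, Pgm3 and Gnpda1 in all samples by group, with the number shown by colour and shape and group means as lines; each panel has its own axis. Gnpnat1 is lowest (2.97) and Pgm3 among the highest (2.97) in the non-wounded sample numbered 1, and Gfpt2 is highest at 0 h and 4 h (4.12 and 4.08).

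The wider set of genes that make, recycle or use GlcNAc was described with 10 lists of 82 genes, of which 64 were measured. At 2 h, 29 of the 64 were higher and 35 lower than in non-wounded samples, with a median difference of -0.04, while over all 1246 probe sets 54.5% were higher and the median was 0.03. With each sample scaled to the same median and SD, 23 of the 64 were higher (median -0.08), and over all probe sets 36.7% were higher with a median of -0.06. In the samples numbered 2 to 4 alone 32 of the 64 were higher (median -0.0049), against 55.5% of all probe sets (median 0.03). None of the 64 passed in all samples without the block. With it 1 rose, which was Uap1, against 1.12% of probe sets that rose in that fit, and none fell. Uap1 was chosen because it passed in that fit, so its call there was fixed by the choice. The genes named below are the 2 of each list with the smallest p, and paralogues of members chosen after their values were seen.

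Within the synthesis list 3 of 6 genes were higher and 3 lower (median 0.02, or -0.09 with that scaling and 0.04 in numbers 2 to 4 alone). Uap1l1, the paralogue of Uap1, was at -0.30 ± 0.33 (SE, limma adjusted p = 0.998), or -0.51 in numbers 2 to 4. The salvage and breakdown list had 1 of 5 higher (median -0.04), and 2 of 5 in numbers 2 to 4 (median -0.15). Gnpda2, the paralogue of Gnpda1, was at -0.02 ± 0.74 (SE, limma adjusted p = 0.998), or -0.36 in numbers 2 to 4. Lysosomal enzymes that free GlcNAc were lower for 3 of 3 (median -0.19, or -0.13 in numbers 2 to 4), with the glycosylasparaginase Aga at -0.33 and the glucosaminidase Naglu at -0.19. In the sialic acid branch, which starts from UDP-GlcNAc, 5 of 6 were lower (median -0.15, or -0.20 in numbers 2 to 4). Its first enzyme Gne was at -0.48 ± 0.27 (SE, limma adjusted p = 0.998), or -0.33 without the samples numbered 1, of which the one at 2 h lay far below the others, and the hydroxylase Cmah at -0.11.

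Among genes that consume UDP-GlcNAc, the hyaluronan synthases had 3 of 3 higher, with a median of 0.68, or 0.97 in numbers 2 to 4. Has3 was at 1.40 ± 0.49 (SE, limma adjusted p = 0.707, or 0.170 with the block) and Has2 at 0.68 ± 0.26 (SE, limma adjusted p = 0.789, or 0.284 with the block), and neither passed. In numbers 2 to 4 alone they were at 1.72 and 0.97 and did not pass either (limma adjusted p = 0.182 and 0.0835). The GlcNAc transferases of heparan sulfate had 5 of 5 lower (median -0.41), but 3 of 5 after quantile normalization (median -0.23) and 4 of 5 in numbers 2 to 4 (median -0.20), with Extl1 at -0.67 and Extl2 at -0.56 (limma adjusted p = 0.932 and 0.998). N-glycan transferases were higher for 7 of 10 (median 0.10, but 4 of 10 and -0.04 with that scaling, and 7 of 10 and 0.13 in numbers 2 to 4), with Mgat4b at -0.38 and Mgat2 at 0.51. The list with the O-GlcNAc transferase Ogt had 9 of 12 higher (median 0.10; scaled, 6 of 12 and 0.02; numbers 2 to 4, 9 of 12 and 0.11). Ogt itself was at -0.68 ± 0.54 (SE, limma adjusted p = 0.998, or 0.117 with the block), or -0.53 in numbers 2 to 4, and the core 2 and core 4 enzyme Gcnt3 at 0.25. Nucleotide sugar conversion and transport had 4 of 11 higher (median -0.05, or -0.07 in numbers 2 to 4), with the transporter Slc35d2 at -0.74 (limma adjusted p = 0.998, or 0.0979 with the block) and the kinase Galk2 at 0.21. Of the GPI anchor transferase subunits 1 of 3 was higher (median -0.14), but 2 of 3 in numbers 2 to 4 (median 0.11). Pigp was at 0.37 and Pigq at -0.58, the latter with the 2 h sample numbered 1 at 5.86 and the others at 7.76 to 8.08, and Pigq was at -0.25 in numbers 2 to 4.

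**Figure D4:**
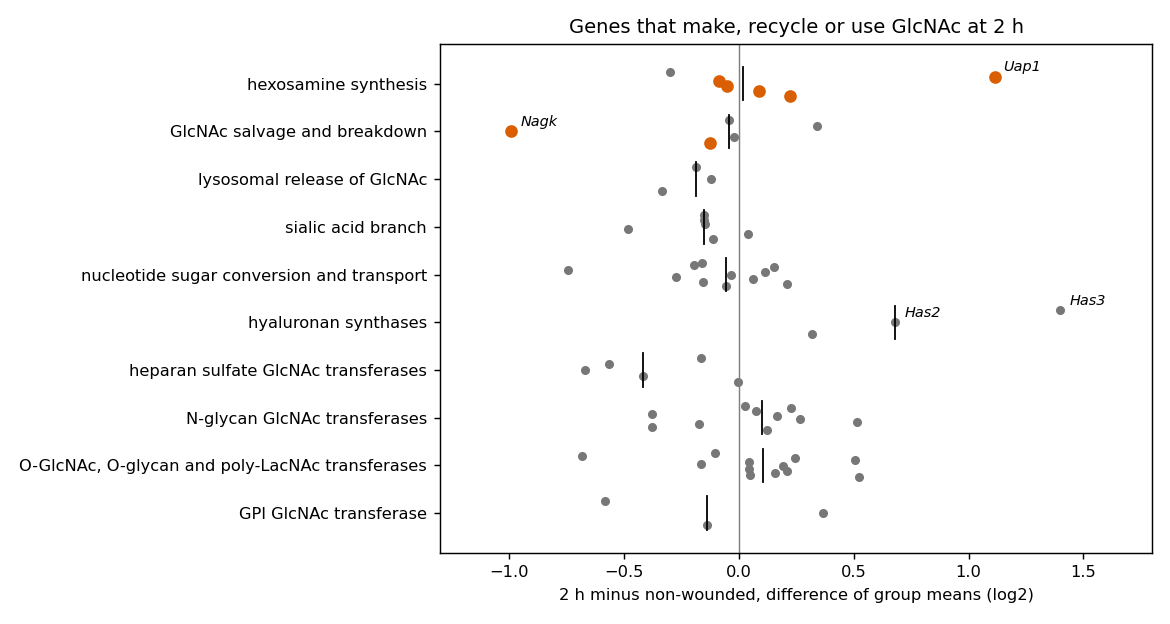
Difference of group means (log2) between 2 h and non-wounded samples for the 64 measured genes of 10 lists, 1 point a gene; the 7 members are the larger orange points, and black lines are list medians. Uap1 at 1.11 and Nagk at -0.99 lie on opposite sides of 0, and Has3, at 1.40, lies farthest from it.

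Genes whose pattern was most like that of Uap1 or Nagk were sought over the 7 samples numbered 2 to 4, as a description that mostly reflects the 3 samples at 2 h against the 3 non-wounded ones. For Uap1, out of 908 other genes, Pearson's r was highest for the cytokine receptor subunit Csf2rb (0.98), the adhesion molecule Icam1 (0.97), the EGF family ligand Areg (0.97), the angiogenic factor Vegfa (0.97) and the cytokine Il10 (0.97). Il10 varied only from 3.18 to 3.44 over these samples. For Nagk the highest were the sialidase Neu3 (0.96), the sulfatase Arsa (0.95), Vps26c (0.95), Tsnax (0.95) and the mannosyltransferase Alg9 (0.94). Uap1 and Nagk themselves were at -0.91 over the 7 samples.

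The samples numbered 1 took no part in that choice. At 4 h in those samples Icam1 was 2.15 above the non-wounded sample, Csf2rb 0.98, Areg 0.65 and Vegfa 0.45, and Il10 was level with it (-0.00087). At 30 min all 5 were above it, Csf2rb by 1.21, Il10 by 0.68, Areg by 0.48, Icam1 by 0.34 and Vegfa by 0.10, whereas Uap1 was at -0.50. At 4 h among the genes most like Nagk, Arsa was at -1.82, Alg9 at -1.67, Vps26c at -1.45, Tsnax at -0.52 and Neu3 at -0.17, so all 5 were lower, by less than the 2.56 of Nagk. At 30 min Arsa was at -2.18 and Alg9 at -1.57, near the -2.13 of Nagk, while Vps26c, Tsnax and Neu3 were at -0.22, 0.01 and -0.01. These differences are unscaled, and the samples numbered 1 at 30 min and 4 h had a narrower range than the non-wounded one. Over all probe sets the quartiles were -0.42 and 0.43 at 30 min and -0.38 and 0.35 at 4 h. How many of all probe sets were higher or lower in these samples was not counted, so the shared directions are only a description.

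Other cell types of skin were followed through their markers. As background, 54.5% of all probe sets were higher at 2 h, 36.7% with each sample scaled and 55.5% in numbers 2 to 4. No share over all probe sets was computed for the mean levels. Langerhans cell markers had 2 of 3 higher at 2 h (median 0.91, or 3 of 3 and 1.02 in numbers 2 to 4), with a mean level of 7.15 to 7.94 in non-wounded and 7.18 to 8.95 in 2 h samples. Neutrophil markers were higher for 6 of 6 (median 0.29, or 5 of 6 with each sample scaled to the same median and SD, and 6 of 6 and 0.20 in numbers 2 to 4; 4.05 to 4.29 against 4.41 to 4.49), and dermal fibroblast markers for 7 of 7 (median 0.31, or 5 of 7 scaled, and 6 of 7 and 0.13 in numbers 2 to 4; 3.31 to 3.75 against 3.63 to 4.24). Keratinocyte markers, among them Areg, had 1 of 4 higher (median -0.18, but 2 of 4 and -0.04 scaled, and 2 of 4 and -0.0082 in numbers 2 to 4; 7.19 to 8.10 against 6.68 to 8.43). T cell markers had 2 of 3 higher (median 0.07, but 1 of 3 and -0.07 scaled, and 1 of 3 and -0.0042 in numbers 2 to 4; 3.24 to 3.50 against 3.20 to 3.63). Their part in the values of Uap1 and Nagk was not tested.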

How the data were processed

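Per the labels' protocols, Trizol was used to extract RNA, from which biotin-labelled cRNA was made for Affymetrix arrays. The deposited table gave 1246 probe sets in 12 samples, made by the authors with RMA, per the submitters' processing notes, and on a log2 scale, as read from their range. RMA corrects background, normalizes arrays and summarises probes; the columns did not share 1 distribution, and the sources used here name neither the array nor any version, filter or batch. Such values say nothing of detection, and precision is limited by how many arrays there are.

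Probe sets were named through RefSeq transcript accessions without versions (GRCm38.p6; 963 matched 1 symbol, 0 several and 283 none); a gene with several used the probe set with the highest mean. Upstream sequences are from RefSeq, where 5 of the 7 members matched; they run towards the gene, as checked by where TATAAA lies in all sequences. The genes named, beyond the members, were the 2 per list with the smallest p at 2 h, any called gene of the lists, and the 5 most like Uap1 and Nagk. Uap1l1 and Gnpda2 fall outside this rule and were chosen as paralogues after their values were seen. The members and lists were chosen with earlier results of these data known.

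The titles gave groups and numbers. Whether replicates were separate animals is not stated, so a p-value reflects only how these samples vary, which may be technical. The test was limma 3.58.1 (R 4.3.3) on all 12 samples by group, without a block. P-values were adjusted by Benjamini-Hochberg across the 1246 probe sets and called under 0.05. The fit was also run on simulated data. Their noise was set too low, because samples alone in their group and set had no residual, so that run does not vouch for the fit here. Deviations from group means of 2 h and non-wounded samples of the same number correlated at 0.796, 0.449, 0.651 and 0.297 for numbers 1 to 4, above the limit of 0.1, so the numbers were taken as pairs and blocked values are given where they matter. Without the samples numbered 1 the correlations were -0.150, 0.0727 and -0.319, so the pairing rests on number 1. Alternatives were the replicate block, repeated quantile normalization, scaling to the same median and SD, median centring, leaving out dim probe sets (under the 25 percentile), samples numbered 2 to 4 alone and leaving out each replicate. No member had a second probe set to try. Figures were drawn with matplotlib 3.10.9.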

Additional observations from a re-analysis of the deposited data

Results flagged for a closer look

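A sample far from the other 3 of its group was found in 5 of 46 groups of 4 samples examined, where chance flags about 1 in 20, and in all 5 it was the sample numbered 1. For Nagk at 2 h it was at 5.88, with the others at 7.61 to 7.75. For Pgm3 it was the non-wounded sample at 2.97, with the others at 2.37 to 2.44. The non-wounded sample was also apart for Aga, at 5.91 against 7.03 to 7.18. At 2 h Gne was at 4.32 against 5.08 to 5.18, and Pigq at 5.86 against 7.76 to 8.08.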

How the results depend on the processing

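Probe sets called at 2 h against non-wounded numbered 3, and 17 with the replicate block, 7 after quantile normalization, 0 with samples centred on their medians (limma; 58 had an unadjusted p under 0.05 in the uncentred fit), 38 in the samples numbered 2 to 4 alone and 0 to 11 with 1 sample left out. At 30 min the count was 0, and 0 to 74 with 1 sample left out. For 2 h against 30 min it was 0, and 2 after quantile normalization, 1 after scaling to the same median and SD, 2 in the samples numbered 2 to 4 alone and 0 to 9 with 1 sample left out. The pairing by number changed the call of no member but Uap1. Uap1 stayed higher and Nagk lower at 2 h than in non-wounded samples in all 16 alternatives, at 0.85 to 1.59 and -1.17 to -0.54. Both genes were chosen with these values known, so this is a description and no evidence for the differences. The replicate block, leaving out a 30 min sample and leaving out dim probe sets could not change these differences, which stayed at 1.11 and -0.99. Leaving out a 2 h sample likewise could not change a member's difference at 30 min against non-wounded. The same held for leaving out a non-wounded sample at 2 h against 30 min. In no comparison could leaving out dim probe sets change the difference of a member that was kept. All such fixed values are part of the next count, so it overstates how much was tested. Of 333 member values under an alternative, 294 kept their direction and side of the threshold (or moved by less than 1 SD of the pairs where no test is given), 3 moved by more and 36 changed sign; the cause was not tested. At 2 h against non-wounded Gfpt2 was -0.0044 after quantile normalization and -0.020 after scaling, and with 1 sample left out Pgm3 ran from -0.16 to 0.060 and Gnpnat1 from -0.32 to 0.13. At 30 min against non-wounded with the replicate block Uap1 was 0.052, Gfpt1 -0.045, Gfpt2 -0.0021 and Gnpnat1 0.0048. After quantile normalization Gfpt1 was -0.10, Gfpt2 -0.16, Pgm3 -0.070 and Gnpda1 0.028; after scaling Gfpt1 was -0.11, Gfpt2 -0.16 and Pgm3 -0.17; centred on medians Gfpt1 was -0.0050 and Gfpt2 -0.062. In the samples numbered 2 to 4 alone Uap1 was 0.26 and Pgm3 -0.037. With 1 sample left out Uap1 ran from -1.24 to 0.50, Gfpt1 from -0.022 to 0.23, Gnpnat1 from -0.40 to 0.093 and Pgm3 from -0.18 to 0.47. At 2 h against 30 min Gnpnat1 was -0.055 with the replicate block and Gnpda1 -0.063 after quantile normalization, and in the samples numbered 2 to 4 alone Nagk was -0.35, Pgm3 0.023 and Gnpda1 -0.058. With 1 sample left out Nagk ran from -0.80 to 1.59, Uap1 from 0.61 to 2.35, Gnpnat1 from -0.14 to 0.30 and Pgm3 from -0.55 to 0.097.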
